A study of Mus musculus with 12 samples.

Results

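Interferon-stimulated genes were followed in 12 clonal lines of mouse granulocyte-monocyte progenitors (GMPs), conditionally immortalized forms of the marrow and fetal liver cells that give rise to neutrophils and monocytes. The list held 35 genes, chosen by symbol for their known place in the interferon response, and all 35 had a row in the count tables of 37583 genes. Of these, 28 had enough reads to be tested between genotypes among 11819 tested genes, and 7 did not. No member was called different between Taz knockout and wild-type clones. Most members instead differed more between clones of one genotype than the median gene did. Against genes of like abundance, 13 of the 28 varied more than the fitted value, as did 17.2% of all genes. The members tended to rise and fall together from clone to clone.

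The clones came from fetal liver haematopoietic progenitors of C57BL/6 embryos at embryonic day 15.5. All 12 carried a retrovirally delivered fusion of the oestrogen receptor hormone-binding region and Hoxb8 (ER-Hoxb8), which holds progenitors in division while estradiol is present, and all were kept in stem cell factor (about 50 ng/ml) with 0.5 uM beta-estradiol. There were 6 wild-type clones (1A to 1C, 2D to 2F) and 6 clones lacking Taz (3G to 3I, 4J to 4L), each grown from a single cell. Taz encodes tafazzin, the mitochondrial enzyme that remodels cardiolipin. The meaning of the number in a clone's name is not given in the labels, nor is the number of embryos, so a p-value here measures the spread between clones. No interferon treatment is named for any of the clones.

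Type I interferons (alpha and beta) bind a receptor made of Ifnar1 and Ifnar2, and interferon gamma binds Ifngr1 and Ifngr2. The receptor-bound kinases Jak1, Jak2 and Tyk2 then phosphorylate STAT proteins. A complex that holds Stat2 and Irf9 binds the interferon-stimulated response element (ISRE) in promoters, and interferon gamma acts through the gamma-activated site (GAS). The induced genes make sensors of viral RNA, proteins that degrade or sequester viral nucleic acid, GTPases that attack vacuoles holding pathogens, and factors such as Irf7 and Usp18 that amplify or shut off the response. Blood stem and progenitor cells are known to keep some of these transcripts without infection.

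Total counts in genes ran from 18970252 to 27431544 per clone, and scaling factors between clones stayed within 0.992 to 1.01. Levels are given as CPM, counts per 1000000 counts scaled by the trimmed mean of M-values (TMM), and 3 counts, the floor used here, correspond to 0.109 to 0.158 CPM. Taz itself stood at 37.1 to 43.9 CPM in wild-type clones and at 2.21 to 4.08 CPM in knockout clones (log2 fold change -3.54, SE 0.13, edgeR adjusted p = 5.68e-08). All 12 listed GMP markers were detected, and their summed level was 13382 to 23699 CPM, with Mpo and Ctsg the most abundant. Clone 2D stood apart by transcripts of maturing neutrophils, and clone 3G alone held fetal hepatocyte transcripts (149 CPM over 6 markers, against 1.95 CPM or less in the other 11 clones).

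Promoter sequences are shown for members that hold the letters of the ISRE core. The 250 bases before the gene start are given 5′ to 3′ on the gene's strand, from RefSeq on GRCm38.p6, for the 6 tested members with the smallest adjusted p between genotypes among those with an ISRE core before the start. They are Bst2 (chr8:71537473-71537722, minus strand), Igtp (chr11:58199306-58199555, plus strand), Stat2 (chr10:128270248-128270497, plus strand), Ifit1 (chr19:34640639-34640888, plus strand), Irgm1 (chr11:48871421-48871670, minus strand) and Gbp3 (chr3:142559794-142560043, plus strand). Capitals mark the ISRE core, searched as GAAANNGAAA or its reverse complement TTTCNNTTTC, and matches that overlap run together.
Bst2: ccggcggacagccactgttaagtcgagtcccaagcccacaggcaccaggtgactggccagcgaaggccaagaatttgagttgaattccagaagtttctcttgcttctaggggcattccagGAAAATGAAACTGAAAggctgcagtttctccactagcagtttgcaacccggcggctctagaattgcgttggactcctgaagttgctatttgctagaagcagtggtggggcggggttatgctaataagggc
Igtp: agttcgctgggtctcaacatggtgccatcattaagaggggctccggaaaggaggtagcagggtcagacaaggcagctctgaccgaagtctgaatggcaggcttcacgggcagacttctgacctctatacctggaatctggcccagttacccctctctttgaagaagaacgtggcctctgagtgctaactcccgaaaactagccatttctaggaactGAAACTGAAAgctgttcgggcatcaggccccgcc
Stat2: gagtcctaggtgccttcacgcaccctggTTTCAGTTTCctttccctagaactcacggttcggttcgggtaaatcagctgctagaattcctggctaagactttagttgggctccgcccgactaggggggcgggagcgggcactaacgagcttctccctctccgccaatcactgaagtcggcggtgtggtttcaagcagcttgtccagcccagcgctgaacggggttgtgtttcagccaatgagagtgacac
Ifit1: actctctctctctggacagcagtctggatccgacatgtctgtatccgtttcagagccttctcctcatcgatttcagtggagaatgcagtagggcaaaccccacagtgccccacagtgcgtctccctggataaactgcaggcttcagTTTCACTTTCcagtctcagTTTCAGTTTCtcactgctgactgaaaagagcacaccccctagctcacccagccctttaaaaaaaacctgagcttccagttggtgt
Irgm1: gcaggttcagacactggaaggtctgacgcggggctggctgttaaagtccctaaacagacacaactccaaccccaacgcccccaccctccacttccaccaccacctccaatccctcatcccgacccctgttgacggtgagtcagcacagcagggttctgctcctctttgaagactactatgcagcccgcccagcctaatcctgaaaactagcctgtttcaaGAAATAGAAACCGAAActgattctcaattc
Gbp3: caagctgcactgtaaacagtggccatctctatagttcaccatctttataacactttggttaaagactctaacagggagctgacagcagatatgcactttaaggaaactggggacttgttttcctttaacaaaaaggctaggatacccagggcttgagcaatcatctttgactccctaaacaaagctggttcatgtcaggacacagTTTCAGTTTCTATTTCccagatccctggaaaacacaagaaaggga

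In Bst2, Irgm1 and Gbp3 a pair of overlapping matches formed a longer run, starting at -130, -30 and -45 from the gene start, and in Ifit1 the pair stood apart, at -104 and -85. Igtp held a single match at -34 and Stat2 a single match at -222. For Bst2 and Stat2 the RefSeq start was not found in the first 50 bases of any GENCODE transcript. Their positions hold for the RefSeq start only. RefSeq gave a window of 300 bases (250 before to 50 after the start) for 26 of the 35 members, and 13 of those 26 genes (50.0%) held an ISRE core, against 3.99% of all 27025 genes with a window. A GAS core, searched as TTCNNNGAA, which is its own reverse complement, was in 8 of the 26 (30.8%), against 9.55% of all genes. These are matches of letters and not measured binding. Spread between wild-type clones overlapped widely between members with and without the ISRE core. The median SD of log2 CPM was 0.47 (range 0.11 to 1.62) over the 10 tested members with an ISRE core. It was 0.41 (range 0.040 to 1.16) over the 11 tested members whose windows had none. Over knockout clones the medians were 0.41 with and 0.29 without the core. Tested members without a window, among them the most variable, Ifi27 and Gbp4, are not in this comparison.

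Between genotypes, 0 of the 28 tested members were called at an adjusted p under 0.05 by edgeR's quasi-likelihood test with Benjamini-Hochberg adjustment, whereas 938 of the 11819 genes were (7.94%), 472 higher and 466 lower in the knockout. A difference between the members' share and the background was not tested, and most members varied more between clones than the median gene. DESeq2 also called 0 members. An unadjusted p under 0.05 was reached by 1 member, Trim25, and by 2806 genes (23.7%). The fold changes leaned upward, with 19 of 28 members above 0 and a median log2 fold change of 0.14, against -0.0066 over all tested genes, where 48.3% lay above 0. This median was 0.018 without clone 2D and 0.26 without clone 2E. The 6 wild-type and 6 knockout values overlapped for every tested member, while they did not overlap for 5.38% of all genes. Estimates ranged from -0.48 (Ifi27) to 0.68 (Xaf1), with the narrowest interval for Trim25 and the widest for Ifi27.

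**Figure D1:**
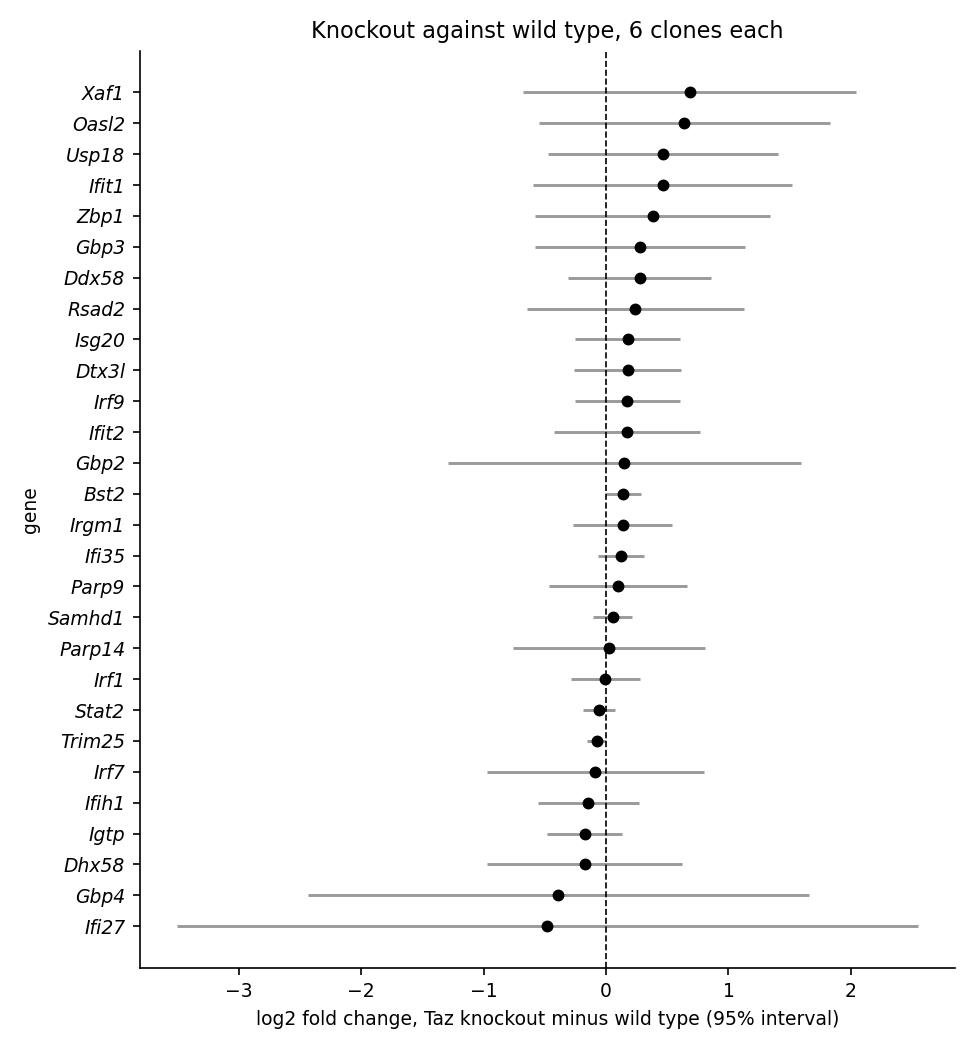
Log2 fold change of each tested member, knockout minus wild type, with its 95% interval (6 clones each). Of the 28 points 19 lie above 0, and every interval but that of Trim25, which ends just below 0, crosses it.

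Among the members that are transcription factors of the pathway, none was called. Stat2, a part of the ISRE-binding complex, was the steadiest. In wild-type clones, always given in the order 1A, 1B, 1C, 2D, 2E, 2F, it read 28.2, 27.0, 26.1, 23.8, 29.4 and 25.2 CPM, and in knockout clones, in the order 3G, 3H, 3I, 4J, 4K, 4L, it read 24.8, 27.7, 25.7, 23.4, 26.1 and 25.5 CPM. The highest and lowest of the 12 clones were only 1.26-fold apart, and the genotypes overlapped (log2 fold change -0.059, SE 0.060, adjusted p = 0.599, edgeR).

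Irf9, the DNA-binding subunit of the complex, moved more between clones. Its wild-type levels were 13.7, 18.9, 21.1, 11.2, 24.2 and 16.2 CPM, and its knockout levels were 18.9, 18.1, 23.2, 17.4, 26.9 and 14.4 CPM. The lowest and highest wild-type clones, 2D and 2E, bore the same number in their names and were 2.17-fold apart, more than the genotypes (log2 fold change 0.18, SE 0.20, adjusted p = 0.642, edgeR).

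Irf7, which amplifies type I interferon production, was low in all clones and had the widest range of the 4 factors. Wild-type clones held 1.15, 2.51, 2.33, 0.693, 4.39 and 1.54 CPM and knockout clones 1.95, 1.99, 2.21, 1.10, 3.28 and 1.36 CPM, from 16 to 119 counts. Clone 2E stood 6.34-fold above 2D, and 4K stood 2.97-fold above 4J. The genotypes overlapped throughout (log2 fold change -0.087, SE 0.41, adjusted p = 0.924, edgeR), and the sign turned positive without clone 2E (0.26).

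Irf1, a factor induced most strongly by interferon gamma, read 28.4, 39.3, 44.4, 33.3, 47.0 and 36.1 CPM in wild-type clones and 37.3, 46.9, 33.2, 32.2, 41.7 and 36.2 CPM in knockout clones. Here 2E was again the highest wild-type clone, but 1A was the lowest and 3H the highest knockout clone. No difference between genotypes was detectable (log2 fold change -0.0058, SE 0.13, adjusted p = 0.986, edgeR), and 95% limits of -0.29 to 0.28 bound it.

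**Figure D2:**
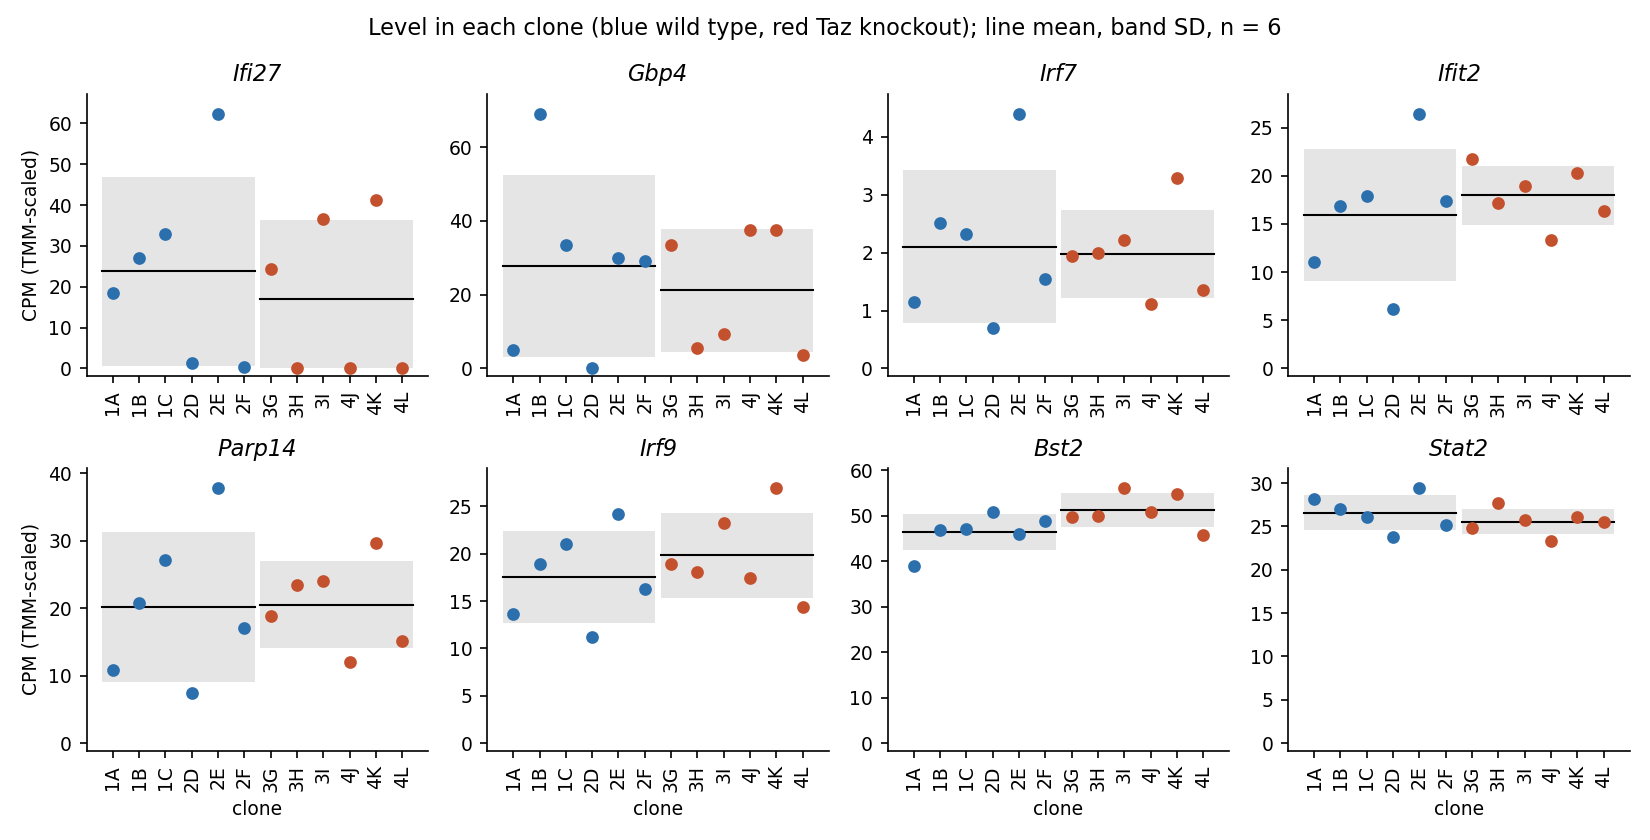
Level of 8 members in each clone (y axis, TMM-scaled CPM, from 0; lines are means, bands 1 SD, n = 6 per genotype). Irf7, Ifit2, Parp14 and Irf9 share a low 2D and a high 2E, and Bst2 and Stat2 stay level. Ifi27 is near 0 in some clones of both genotypes. Gbp4 is at 0 in 2D, and its lowest knockout clone, 4L, is at 3.77 CPM.

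The sensors of viral RNA did not all follow one order. Ifih1 (MDA5, which binds long double-stranded RNA) averaged 29.0 ± 7.15 CPM over wild-type and 26.3 ± 5.35 CPM over knockout clones (SD, n = 6 each; such pairs of means follow this order from here on). Ddx58 (RIG-I, which binds RNA ends) averaged 16.1 ± 4.93 and 19.4 ± 7.22 CPM, and Dhx58 (LGP2, their regulator) at 4.16 ± 2.06 and 3.68 ± 1.41 CPM. Clone 4K had the highest Ddx58 of the 12 (30.8 CPM) and the highest Dhx58 of the knockout clones (5.48 CPM), yet the lowest Ifih1 of the knockout clones (19.1 CPM). Clone 2D had the lowest wild-type level of all 3 sensors, at 16.3 CPM for Ifih1, 9.01 for Ddx58 and 1.91 for Dhx58.

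Trim25, the ubiquitin ligase that activates RIG-I, was the second most abundant member per kilobase of exon and the least variable of the 28. Wild-type clones read 130, 129, 125, 133, 125 and 133 CPM, and knockout clones 117, 127, 122, 119, 131 and 118 CPM. Its difference was the most tightly bounded, a log2 fold change of -0.077 (SE 0.034, 95% interval -0.15 to -0.0021), and 4 of the 6 knockout clones lay below every wild-type clone. The adjusted p was 0.197 (edgeR), and 0.0686 was the smallest under any alternative, so the call was not made.

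Zbp1, a sensor of left-handed nucleic acid, was near the floor, with 2 to 23 counts and means of 0.439 ± 0.283 and 0.573 ± 0.182 CPM. Its order was its own, with 1A the highest wild-type clone at 0.880 CPM while 2E, at 0.185 CPM, was above only 2D.

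Of the effectors that act on viral RNA or protein, the IFIT family binds foreign RNA caps. Ifit2 averaged 16.0 ± 6.86 and 18.0 ± 3.03 CPM, with a wild-type range of 6.19 (2D) to 26.4 CPM (2E), 4.27-fold. Ifit1 was far lower, at 0.586 ± 0.426 and 0.818 ± 0.340 CPM, and was again lowest in 2D (2 counts) and highest among wild-type clones in 2E (35 counts). Samhd1, which depletes the nucleotides that viruses copy from, was abundant and nearly level. It read 127, 138, 152, 113, 134 and 148 CPM in wild-type and 143, 146, 132, 129, 157 and 136 CPM in knockout clones (log2 fold change 0.054, SE 0.072, adjusted p = 0.706, edgeR). Even so its lowest clone was 2D and its highest was 4K.

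Bst2 (tetherin), which holds budding virions at the cell surface, had the highest level of all members per kilobase of exon, 54.0 CPM per kilobase, ahead of Trim25 at 21.9 and Samhd1 at 15.1. Its levels were 39.0, 46.8, 47.0, 50.7, 45.9 and 48.7 CPM in wild-type clones and 49.7, 50.0, 56.0, 50.7, 54.8 and 45.7 CPM in knockout clones. The mean was higher in the knockout (46.3 ± 4.00 against 51.2 ± 3.73 CPM), and the log2 fold change of 0.14 (SE 0.067, 95% interval -0.0027 to 0.29) did not pass (adjusted p = 0.219, edgeR). Clone 2D, the lowest wild-type clone for 20 members, was the highest for Bst2, while in knockout clones 4L was the lowest.

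Oasl2, of the oligoadenylate synthetase family, had the second largest fold change. Its wild-type levels were 0.268, 0.400, 1.05, 0.390, 1.77 and 0.332 CPM and its knockout levels 1.26, 0.968, 1.19, 0.807, 2.11 and 0.251 CPM, from 5 to 48 counts. In 5 of 6 knockout clones it exceeded 4 of the 6 wild-type clones, but 4L was the lowest of the 12. The log2 fold change of 0.64 (SE 0.54, 95% interval -0.54 to 1.83) had an adjusted p of 0.519 (edgeR), and it moved from 0.35 without 4K to 1.17 without 2E. Rsad2 (viperin), which makes a chain-terminating nucleotide, averaged 1.61 ± 0.687 and 1.91 ± 0.980 CPM, and Isg20, an exonuclease, averaged 2.67 ± 0.540 and 3.02 ± 0.768 CPM.

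Regulators that restrain or modify the response also varied. Usp18, the protease that removes Isg15 from proteins and dampens the receptor, averaged 1.27 ± 0.760 and 1.75 ± 0.682 CPM and was 7.08-fold apart between the highest and lowest wild-type clones. Parp9 and Dtx3l, whose products work as a pair, lie head to head on chromosome 16 with overlapping exons. Parp9 averaged 34.6 ± 13.5 and 37.0 ± 10.2 CPM and Parp14, on the same chromosome, 20.2 ± 11.1 and 20.5 ± 6.47 CPM. Dtx3l, one of the most abundant members, read 46.5, 62.3, 77.3, 41.7, 94.8 and 67.4 CPM in wild-type and 64.7, 79.3, 84.0, 55.5, 94.9 and 62.5 CPM in knockout clones. Clones 2E and 4K reached almost the same level, and 2E stood 2.28-fold above 2D (genotype log2 fold change 0.18, SE 0.20, adjusted p = 0.644, edgeR).

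Ifi35, a small leucine-zipper protein, was level apart from a few clones: 15.3, 15.6, 14.6, 15.5, 18.3 and 15.7 CPM in wild-type and 16.0, 16.8, 19.7, 16.2, 19.9 and 15.0 CPM in knockout clones. Clones 2E, 3I and 4K were the high ones (log2 fold change 0.12, SE 0.085, adjusted p = 0.420, edgeR). In the annotation, 16.8% of its exon bases overlap the gene Gm11626, and the counting did not use strand. Xaf1, a binding partner of the apoptosis inhibitor XIAP, had the largest fold change of the 28, a value that moved from 0.31 without 4K to 1.26 without 2E. Its wild-type levels were 0.612, 0.509, 1.05, 0.130, 2.03 and 0.290 CPM and its knockout levels 1.21, 1.43, 1.10, 0.849, 2.67 and 0.201 CPM. The log2 fold change of 0.68 (SE 0.62, 95% interval -0.68 to 2.04) was within the spread between clones (adjusted p = 0.551, edgeR), the extremes being 2D and 4L at the bottom and 4K and 2E at the top.

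The GTPases that act on pathogen vacuoles differed widely in level and spread. Irgm1 averaged 60.2 ± 17.0 and 66.1 ± 11.1 CPM. Igtp (Irgm3) read 6.28, 8.58, 8.35, 5.85, 8.93 and 8.80 CPM in wild-type and 7.52, 7.59, 7.22, 6.84, 7.31 and 5.02 CPM in knockout clones. The log2 fold change of -0.17 (SE 0.14, adjusted p = 0.500, edgeR) was within the spread, and 11.8% of its 50-base stretches also occur in the overlapping gene Irgm2. Gbp3 averaged 1.64 ± 0.836 and 2.00 ± 1.14 CPM, its highest clone being 3H (4.23 CPM).

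Gbp2 ranged widely at a low level, with 0.153, 1.56, 1.55, 0.130, 3.40 and 0.788 CPM in wild-type and 2.16, 1.88, 1.19, 0.807, 1.83 and 0.603 CPM in knockout clones. Clones 1A and 2D held 4 and 3 counts, and 2E held 92. All 6 knockout clones lay between those extremes (log2 fold change 0.15, SE 0.66, adjusted p = 0.920, edgeR).

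Gbp4 went from no read at all to one of the higher levels of the list. Wild-type clones had 4.94, 69.0, 33.4, 0, 29.9 and 29.0 CPM, and knockout clones 33.5, 5.50, 9.30, 37.5, 37.4 and 3.77 CPM. Clone 2D had 0 of 23288919 counts, which allows a level of up to 0.130 CPM, so that 1B was at least 531-fold higher. Low clones (1A, 2D, 3H, 3I and 4L) and high clones occurred in both genotypes (log2 fold change -0.39, SE 0.94, adjusted p = 0.846, edgeR). Its neighbours on chromosome 5, Gbp9, Gbp8 and the predicted gene Gm43302, were also at 0 in 2D and peaked in 1B, at 31.4, 21.1 and 12.8 CPM. Lrrc8b and Lrrc8c, farther along on one side, stood at 8.97 and 30.7 CPM in 2D. Gbp4 shares 7.78% of its 50-base stretches with other genes, mainly of this family, so reads may be split among them.

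Ifi27, a small membrane protein of mitochondria and the nuclear envelope, was present or nearly absent. Wild-type clones had 18.4, 27.1, 33.0, 1.39, 62.3 and 0.249 CPM, and knockout clones 24.3, 0.0509, 36.6, 0, 41.2 and 0 CPM. In counts, 2F had 6, 3H had 1, and 4J and 4L had 0, while 2E had 1689 and 4K 880. Clones with and nearly without the transcript occurred in both genotypes, and the log2 fold change of -0.48 carried an SE of 1.39 (95% interval -3.50 to 2.55, adjusted p = 0.872, edgeR). Its SD of log2 CPM over the knockout clones, 4.59, ranked 1 of all 11819 genes. Of its neighbours on chromosome 12, Ddx24, the next gene on one side, ranged from 147 to 176 CPM. Serpina3g, the next on the other side, ranged from 0.581 to 24.3 CPM, and its lowest clones, 2F (0.581 CPM), 4J (1.02 CPM) and 2D (1.04 CPM), were also low in Ifi27. Its levels in 3H and 4L, where Ifi27 was at or near 0, were 6.37 and 6.18 CPM. Dicer1, farther along, ranged from 153 to 217 CPM.

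The 7 members that were not tested did not pass the low-count filter, and none had more than 30 counts in any clone. Isg15, the ubiquitin-like protein that is among the most strongly induced genes of the response, had 0 to 28 counts, with means of 0.299 ± 0.304 and 0.739 ± 0.447 CPM. With no filter on low counts its log2 fold change was 1.27 (SE 0.71, adjusted p = 0.393, edgeR). Oas1a had 1 to 27 counts and Oasl1 1 to 30. Mx1, Mx2, Ifit3 and Ifi44 had no more than 1, 3, 2 and 1 counts in any clone, and Mx2 is annotated as a polymorphic pseudogene. Ifit3 and Oas1a share 51.2% and 57.6% of their 50-base stretches with Ifit3b and Oas1g, so their counts are uncertain.

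**Figure D3:**
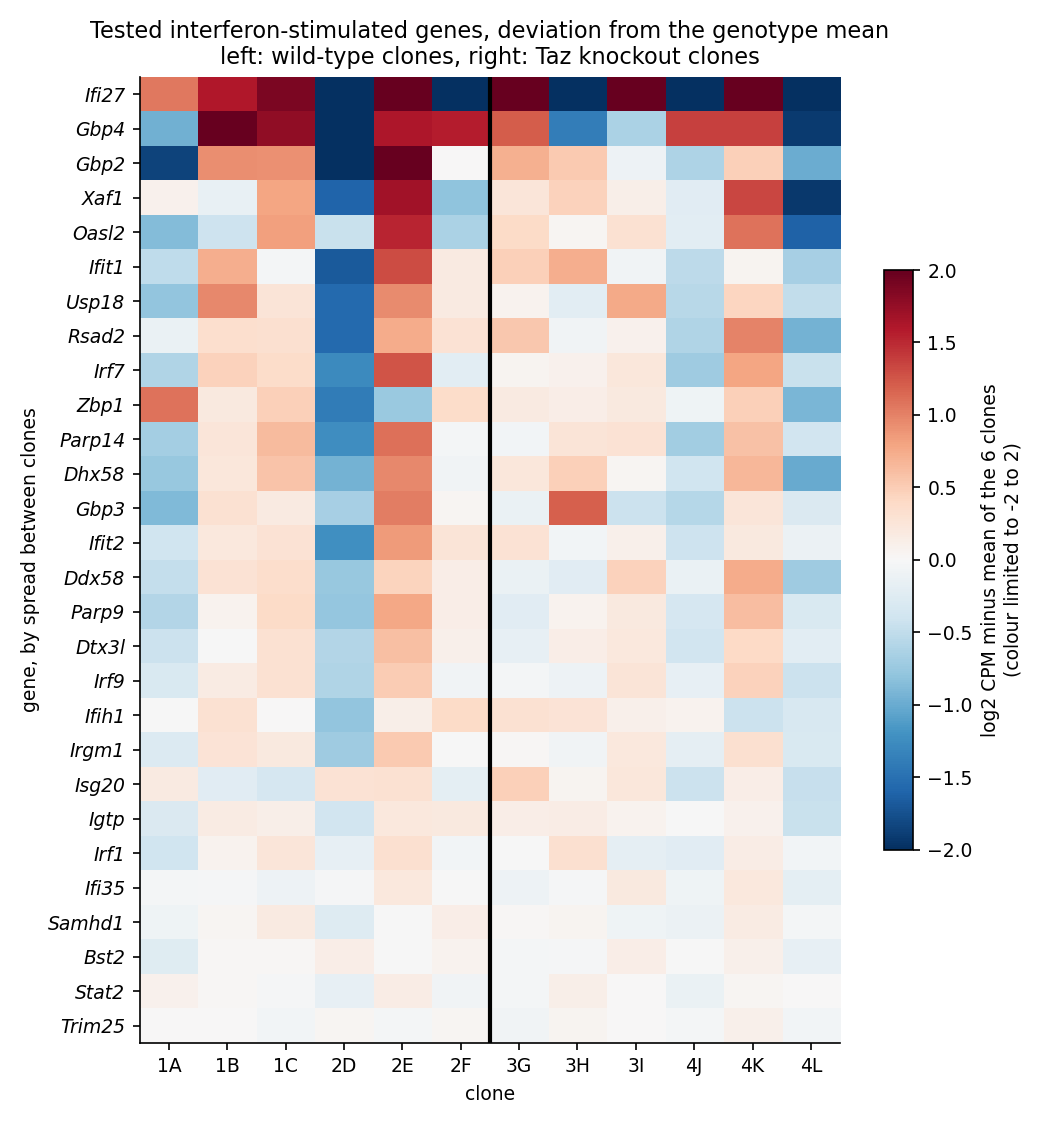
Deviation of each tested member from the mean of the 6 clones of its genotype (log2 CPM, colour limited to 2 in either direction), genes ordered by spread. Columns 2E and 4K are mostly red and 2D, 4J and 4L mostly blue, and rows at the bottom are pale.

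Across the 28 members the clones fell into a common order. Clone 2E was the highest of the 6 wild-type clones for 21 members, where it was highest for 20.9% of all genes, and 2D was the lowest for 20 members, against 26.4% of all genes. Among knockout clones 4K was the highest for 16 members (21.2% of all genes), 4L the lowest for 15 (17.1%) and 4J the lowest for 11 (16.5%). The members where 2E was not the highest were Ifih1, Gbp4, Zbp1, Usp18, Bst2, Trim25 and Samhd1.

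The median deviation from the genotype mean, over the 28 members, was -0.35 for 1A, 0.21 for 1B, 0.30 for 1C, -0.77 for 2D, 0.67 for 2E and 0.044 for 2F on the log2 scale. In the knockout clones it was 0.060 for 3G, 0.064 for 3H, 0.13 for 3I, -0.23 for 4J, 0.41 for 4K and -0.43 for 4L. Over all tested genes the same median stayed within -0.0011 and 0.0084. The pairs at the extremes, picked after their values were seen, are given as a description: 2E exceeded 2D for 26 of 28 members with a median ratio of 2.62, and 4K exceeded 4L for 27 of 28 with a median ratio of 1.75, while the shares over all genes were 50.0% and 48.5%. In bulk RNA of a clone, fewer cells of a state and less RNA per cell cannot be told apart.

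**Figure D4:**
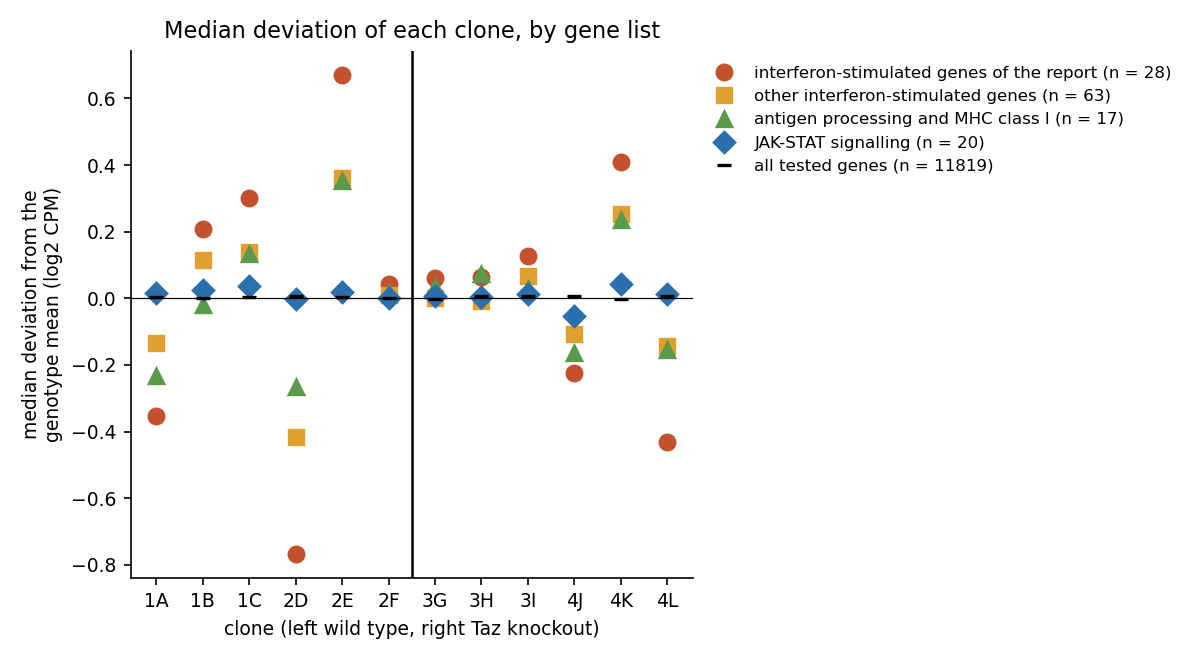
Median deviation of each clone from its genotype mean (y axis, log2 CPM) for the 28 members, 3 other gene lists and all tested genes. The members span -0.77 in 2D to 0.67 in 2E, other interferon-stimulated genes and antigen processing genes follow with smaller values, and JAK-STAT genes stay near 0.

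Other gene lists showed how far the order extended. A list of 93 other interferon-stimulated genes had 63 tested, and its median deviation was -0.42 in 2D, 0.36 in 2E, 0.25 in 4K and -0.14 in 4L. It included Ifi203, an AIM2-like DNA-binding protein, at 3.25 CPM in 2D and 36.5 CPM in 2E, and Ifi47, a vacuole GTPase, at 45.5 and 139 CPM. Antigen processing genes, 17 tested, shared the order, with 2E the highest wild-type clone for 12 and 4K the highest knockout clone for 8. The 20 genes of JAK-STAT signalling had medians between -0.054 and 0.043 in all 12 clones. The ends of that range were 4J and 4K, with 15 of 20 genes below and 15 of 20 above the knockout mean. Single genes of the list differed more. Socs2 was at 1.21 CPM in 2D and 16.6 CPM in 2E, and Socs3, in the other direction, at 6.06 and 3.54 CPM.

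The spread itself was large for these genes. The median SD of log2 CPM over clones was 0.64 in wild type and 0.42 in knockout, against 0.16 and 0.13 over all tested genes. Of the 28, 23 and 24 exceeded the median gene in wild type and knockout, and 11 and 7 exceeded the 90th percentile of all genes. Low counts add to the SD of rare genes, so abundance was taken into account with edgeR's biological coefficient of variation. By this measure 13 of 28 members exceeded the value fitted for genes of their abundance, against 17.2% of all genes. Irf7, at 49.5% against a fitted 51.4%, was among those that did not. The median coefficient, which is not matched for abundance, was 33.8% over the members and 13% over all genes. The SD was larger in wild type for 23 of the 28, where this was so for 66.5% of all genes. The difference in spread between genotypes was not tested.

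**Figure D5:**
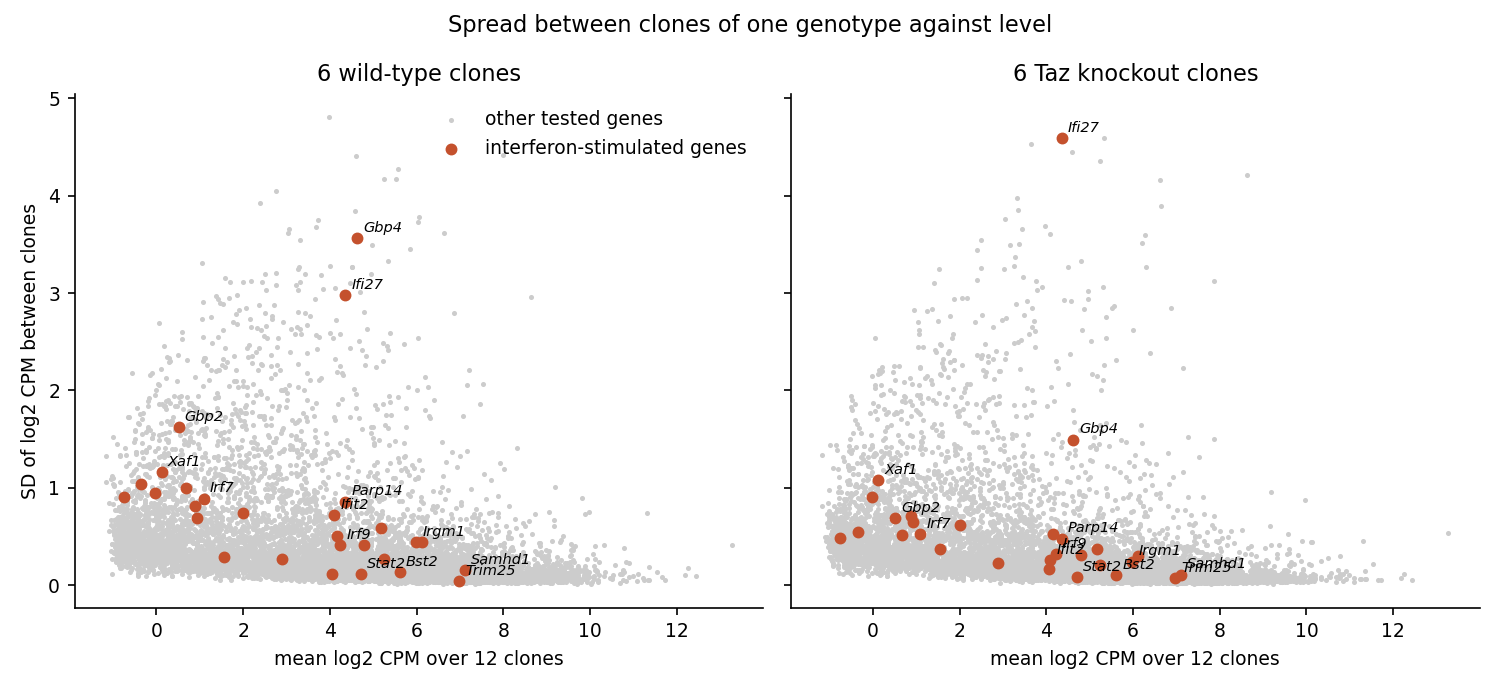
SD of log2 CPM between the 6 clones of a genotype (y axis) against mean log2 CPM over the 12 clones (x axis) for the members (red) and all other tested genes (grey). Ifi27 and Gbp4 lie near the top, 23 (wild type) and 24 (knockout) of the 28 members lie above the median gene, and Trim25, Stat2 and Bst2 within the bulk.

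Between the numbers in the clone names of one genotype, with 3 clones each, no gene was called, member or not. These contrasts therefore cannot tell the members from other genes. Between numbers 1 and 2 of the wild type, 0 of 28 members and 0% of all genes were called by edgeR. An unadjusted p under 0.05 was reached by 0 members and 416 of the 11819 genes. Between numbers 3 and 4 of the knockout, 0 members and 0% of genes were called. Here 0 members and 244 of the 11819 genes had an unadjusted p under 0.05. The lowest and highest wild-type clones shared number 2 and the lowest and highest knockout clones shared number 4. The 4 pairings of a knockout with a wild-type number share clones, and for Xaf1 they gave log2 fold changes of 0.79 (3 against 1), 0.59 (3 against 2), 0.78 (4 against 1) and 0.58 (4 against 2), each with an SE of 0.96 to 0.97.

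Markers of cell states also differed between the clones at the ends of the order, and their part in it was not tested. The summed level of 12 mature neutrophil markers was 1550 CPM in 2D and from 22.1 (2E) to 115 CPM (1A) in the remaining wild-type clones. In knockout clones it was 15.9 (4K) to 146 CPM (4L). In 2D, S100a8 and S100a9 reached 439 and 486 CPM, while Ltf, Camp and Retnlg were at 0 in 2E. The sum of 7 mast cell and basophil markers was 1186 CPM in 2D and 4279 CPM in 2E, while in knockout clones it ran from 2228 CPM in 3H, which was the lowest for 5 of the 6 tested markers, to 5073 CPM in 4K, with 4L at 3218 CPM.

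The 12 GMP markers had their lowest sums at the high end of the order. Their summed level was 14403 CPM in 2E, 13382 CPM in 4K and 14482 CPM in 3I, against 17823 to 23699 CPM in the remaining 9 clones, with 2D the highest. Marker by marker the list was divided. Clone 2E was the lowest wild-type clone for 7 of the 12 and the highest for 2. Clone 4K was the lowest knockout clone for 6 and the highest for 3. Clone 2D, with the highest sum, lay below the wild-type mean for 8.

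Among dendritic cell markers, the 10 conventional ones summed to 70.5 CPM in 2D, 295 CPM in 2E, 80.7 CPM in 4L and 222 CPM in 4K. Nearly all of that sum was Flt3, a receptor that progenitors also carry (65.3, 289, 73.7 and 205 CPM in those clones). The dendritic genes Cd209a and Batf3 were at 0 or a single read in every clone. The 9 plasmacytoid markers summed to 124 to 239 CPM, nearly all from Tcf4 and Runx2, and Siglech, the defining one, did not exceed 1.31 CPM and was at 0 in 2D, 2E, 4K and 4L. Monocyte and macrophage markers summed to 828 CPM in 2D, 862 CPM in 1A and 2023 to 2319 CPM in 1B, 1C, 2E and 2F, and to 1157 CPM in 4L and 1558 to 2007 CPM in the remaining knockout clones, the highest being 4J. Marker by marker they did not keep the members' order in knockout clones: the median deviation of the 8 tested was -0.67 in 4K and 0.46 in 4J. In wild-type clones, as for the members, that median was lowest in 2D (-0.74), then 1A (-0.17). In 1B, 1C, 2E and 2F it was 0.21 to 0.34, with 2E at 0.30 and 1C the highest. With 2D and 2E both left out, 0 members were called and the members' median log2 fold change was 0.17.

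Upstream of the members, the matched ligand genes had at most 1 read in any clone. The receptors for type I interferon and interferon gamma were expressed. The listed interferons that were not matched could not be seen, and reads aligned to more than one place were not counted. Of 16 matched genes, from 23 listed, for interferons and their receptors, 9 had no read in any clone, among them Ifng and the 4 matched alpha interferons, and Ifnb1 had a single read in 2E. Ifnar1 (115 ± 8.07 and 113 ± 11.4 CPM) and Ifnar2 (75.1 ± 7.38 and 77.8 ± 6.51 CPM) were expressed in every clone, as was Ifngr1. Of the 5 tested receptor genes, 4K was the highest knockout clone for 3 and the lowest for 2. Clone 2E was the highest wild-type clone for 1 and the lowest for 2. The interferon gamma receptor chain Ifngr2 was the nearest to a call among the 5 tested genes, at 35.8 ± 6.29 and 28.7 ± 4.03 CPM (log2 fold change -0.32, SE 0.13, adjusted p = 0.151, edgeR), and none of the 5 was called.

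In JAK-STAT signalling, 2 genes among the 20 tested fell in the knockout by edgeR, and the list's median log2 fold change was 0.012. The phosphatase Ptpn6 (SHP-1), which restrains cytokine receptors, fell from 233 ± 19.9 to 190 ± 16.5 CPM (log2 fold change -0.30, SE 0.068, adjusted p = 0.0228, edgeR). Pias1, a SUMO ligase that inhibits STAT signalling, fell from 59.3 ± 1.74 to 53.7 ± 2.69 CPM (log2 fold change -0.14, SE 0.039, adjusted p = 0.0430, edgeR). The phosphatase Ptpn1, which acts on Jak2 and Tyk2, was just past the threshold by edgeR (-0.12, SE 0.035, adjusted p = 0.0503) and was called by DESeq2 (adjusted p = 0.0147).

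Both calls lay close to the threshold. Among the 12 single clones left out, that for Pias1 was kept only without 2E or 4L (adjusted p up to 0.0918, edgeR). The call for Ptpn6 was lost without 1B, 1C, 3H, 3I, 4K or 4L (up to 0.0571). Both were lost with clones summed by the number in their names, and that for Pias1 also with no low-count filter.

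Of 22 tested genes of nucleic acid sensing, 0 rose and 1 fell by edgeR, and the median log2 fold change was -0.074. The gene was Myd88, the adaptor of most Toll-like receptors, at 45.3 ± 1.26 and 39.6 ± 3.03 CPM (log2 fold change -0.20, SE 0.051, adjusted p = 0.0385, edgeR). Among single clones left out, the call was kept only without 2D, 3H or 4K (adjusted p up to 0.0882, edgeR). It was also lost with no low-count filter, with clones summed by the number in their names, and with 2D and 2E both left out. None of 7 tested interferon regulatory factors outside the members was called (median -0.060), the smallest adjusted p being that of Irf2bpl (log2 fold change 0.24, adjusted p = 0.241, edgeR).

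Among the 63 other interferon-stimulated genes 0 fell by edgeR, and the median log2 fold change was 0.033. DESeq2 called Ifitm1 lower (adjusted p = 0.0373) and Trim30d, Parp11 and Parp12 higher (0.0406, 0.0428 and 0.0452), none of which passed by edgeR. Rnf213, a giant ubiquitin ligase that coats bacteria, rose. It stood at 72.8, 90.8, 157, 85.9, 127 and 121 CPM in wild-type clones and at 171, 187, 178, 173, 210 and 161 CPM in knockout clones. The genotypes did not overlap, and the log2 fold change was 0.72 (SE 0.16, adjusted p = 0.0212, edgeR). The call was lost without 1B (adjusted p = 0.0501, edgeR) and kept under the other 20 alternatives. None of 17 tested antigen processing genes was called by edgeR (median 0.068), the nearest being the chaperone Pdia3 (log2 fold change -0.18, SE 0.054, adjusted p = 0.0690 by edgeR and 0.0174 by DESeq2, which called it) and the peptidase Erap1, which trims peptides for MHC class I (0.41, SE 0.16, adjusted p = 0.146).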

How the data were processed

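Gene counts per clone were deposited by the authors. Per the submitters' processing notes, reads were handled with STAR, HTSeq and edgeR on mm9, and file names mark the counting as not stranded. Versions are not given in the sources used here. The deposited counts are whole reads per Ensembl gene; 5 lines that name no gene were left out, of which reads aligned to more than one place were 42.8% to 44.9% of each file. With edgeR 4.0.16 (R 4.3.3), genes passing filterByExpr were TMM-scaled and tested by quasi-likelihood over 12 clones, with adjusted p-values over 11819 genes and calls at 0.05. Log2 CPM used a prior count of 2. DESeq2 1.42.0, limma 3.58.1 with voom, other scalings and filters, and single clones left out were alternatives, and leaving out 2D and 2E together was chosen after seeing the data. The test was checked on simulated counts. Positions and shared 50-base stretches came from GENCODE M21 (GRCm38), promoters from RefSeq (GRCm38.p6). The members and lists were chosen with earlier results of these data known. Values per clone are given for 4 transcription factors, the 6 members with the smallest adjusted p, the 4 most variable and the 3 most abundant. Intervals on levels at 0 cover counting error only. A result that rests on a withheld item is not reported here, though the item stays in list totals and medians.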

Additional observations from a re-analysis of the deposited data

Results flagged for a closer look

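A clone was marked where its gap to the nearest clone of its genotype took up a larger part of that genotype's range than Dixon's limit for 6 values allows, and chance marks about 1 in 20 such groups. Of 56 groups (28 members in each genotype), 3 were marked. Ifih1 in wild-type clone 2D, at 16.3 CPM, lay far below the next clone, 1A at 27.9 CPM. Ifi35 in wild-type clone 2E, at 18.3 CPM, lay far above the next, 2F at 15.7 CPM. Igtp in knockout clone 4L, at 5.02 CPM, lay far below the next, 4J at 6.84 CPM. The 3 clones are those at the ends of the common order of the members. The large ranges of Ifi27 and Gbp4 were not marked, since the gap next to the end clone was a smaller part of the range.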

How the results depend on the processing

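None of the 28 members was called under any of the alternatives run. Numbers of all genes called higher and lower were 804 and 809 by DESeq2, 271 and 280 with no low-count filter, 210 and 145 with clones summed by the number in their names, and 1171 and 1125 by voom with that number as a correlated block (estimated correlation -0.17), the last a pairing the labels do not explain. Leaving out 1 clone gave 294 (without 3I) to 558 (without 2D) genes higher and 272 (without 3G) to 535 (without 2E) lower. No paired analysis was possible because the genotypes share no replicate numbers. Of 28 members, 12 changed sign at least once, and no reversed value was called. Over single clones left out, the log2 fold change ranged from -0.079 to 0.060 for Irf1, -0.29 to 0.26 for Irf7, -0.32 to 0.060 for Dhx58, -0.021 to 0.40 for Rsad2, -0.96 to 0.085 for Ifi27, -0.081 to 0.74 for Gbp2, -0.081 to 0.56 for Gbp3, -0.64 to 0.12 for Gbp4, -0.048 to 0.28 for Parp9 and -0.14 to 0.30 for Parp14. By voom, without and with the block, Irf7 was at 0.046 and 0.050 and Gbp4 at 0.82 and 0.84. With 2D and 2E left out, Irf1 was at 0.037, Irf7 at 0.078, Zbp1 at -0.041 and Samhd1 at -0.0060. The cause of these changes was not tested. Depth limits Isg15, Oas1a, Oasl1, Mx1, Mx2, Ifit3 and Ifi44, which did not pass the low-count filter, and Zbp1, Xaf1, Oasl2, Ifit1, Gbp2, Gbp3, Isg20, Rsad2 and Usp18, which had under 100 counts in every clone.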

Other observations

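Among the other interferon-stimulated genes, some differed widely between clones, and those named here were chosen after their values were seen. Lgals3bp, a secreted galectin-binding glycoprotein, was at 3.94 CPM in 2D and 115 CPM in 2E, and at 44.9 CPM in 4L and 223 CPM in 4K. Mndal, an AIM2-like nuclear protein, was at 0.910 and 25.3 CPM in 2D and 2E and at 5.83 and 28.8 CPM in 4L and 4K. Epsti1 was at 7.06 and 21.3 CPM and at 9.45 and 22.2 CPM in the same clones. Not all genes of the list kept this order. The membrane protein Ifitm1, which blocks virus entry, was at 96.0 CPM in 2D and 31.1 CPM in 2E, and at 15.5 CPM in 4L and 4.22 CPM in 4K. By edgeR none of these 4 genes was called between genotypes, while DESeq2 called Ifitm1 lower in the knockout (adjusted p = 0.0373, against 0.104 by edgeR, log2 fold change -1.95).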
